A study of Homo sapiens with 6 samples.

Results

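Transforming growth factor-β (TGF-β) and bone morphogenetic protein (BMP) signalling was examined in ZR-75-1 cells through 10 genes, chosen by name as receptors, SMADs and ID target genes and found by their Ensembl identifiers among the 60656 genes of the count table. They are the inhibitor of DNA binding genes ID1, ID2, ID3 and ID4, the signal transducer SMAD3, the inhibitory SMADs SMAD6 and SMAD7, the TGF-β receptors TGFBR1 and TGFBR2, and the decoy receptor gene BAMBI. ZR-75-1 is an oestrogen receptor-positive human breast cancer line, and the libraries analysed here came from cells labelled as its parental form. One group of 3 libraries was grown with DMSO, the solvent control, and the other group of 3 with 500 nM abemaciclib, an inhibitor of the kinases CDK4 and CDK6 that hold Rb in its phosphorylated form, both for 4 days in the same medium. The study describes the 3 replicates of an RNA-seq condition as independent biological replicates. It describes RNA-seq of ZR-75-1 cells given abemaciclib and the oestrogen receptor degrader fulvestrant as performed once. Whether that covers these libraries, which have no fulvestrant group, is not stated. The spread given here is that within this set of libraries from a single cell line.

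Ligands of this family bring together type I and type II receptor kinases at the cell surface. The type I receptor then phosphorylates receptor SMADs, which join SMAD4 and enter the nucleus: SMAD2 and SMAD3 on the TGF-β and activin side, and SMAD1, SMAD5 and SMAD9 on the BMP side. SMAD6 and SMAD7 are targets of the pathway that feed back to block it, and ID genes are classical BMP targets whose proteins have a helix-loop-helix but no DNA-binding region, so that they hold E proteins such as TCF3 off DNA.

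The libraries held 3317860 to 4013156 counts on genes. They were made with a kit that primes on the poly(A) tail and sequences only the 3′ end of an mRNA. A level in CPM (a count scaled to the size of its library by the TMM method) stands for transcripts and was not divided by gene length. Where no count was found, the limit set by 3 counts was 0.748 to 0.904 CPM by library and covers counting error only. The 8 luminal epithelial markers were all detected, with a summed level of 8240 to 8810 CPM with DMSO and 9550 to 10700 CPM with abemaciclib. Of 15 basal, fibroblast, endothelial and leukocyte markers, 10 had 0 counts in every library and 1, COL1A1, passed the filter on low counts, at 13.1 ± 2.68 CPM with DMSO and 12.5 ± 2.67 CPM with abemaciclib (SD, n = 3 in each group). MKI67, which marks cycling cells, had a log2 fold change of −6.71 (its standard error, SE, was 0.17, edgeR adjusted P = 4.61e-22), and its part in the changes described here was not tested.

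The ID genes moved, in opposite directions. ID1 rose 2.98-fold and ID3 rose 1.85-fold with abemaciclib, while ID2 fell to 0.412 times its DMSO level. The receptor-regulated SMAD3, the inhibitory SMADs, the receptor TGFBR1 and BAMBI did not pass the threshold, which was a Benjamini–Hochberg adjusted P of 0.05 in the quasi-likelihood test of edgeR, with 10863 genes tested. ID4 and TGFBR2 had too few counts to be tested. Of the 8 genes tested, 2 were thus higher and 1 lower, or 25% and 12.5%, against 12.5% of all genes tested that were higher, 13.3% that were lower and 25.7% called in either direction. No difference from these shares can be read from 8 genes that were chosen with earlier results of these data known. Bulk RNA cannot tell fewer cells with a transcript from less of it per cell.

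**Figure D1:**
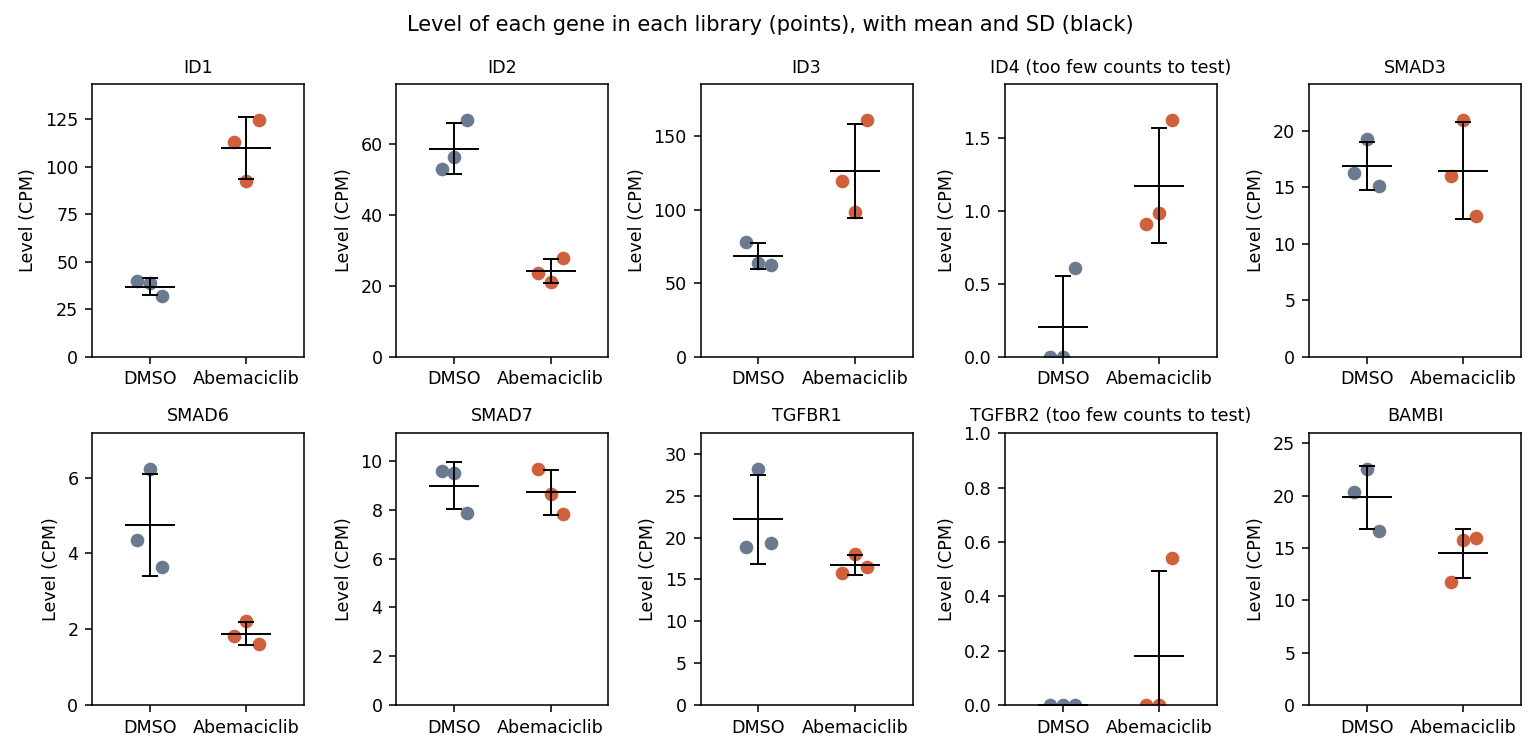
Level of each of the 10 genes (vertical axis, CPM) in the 3 DMSO and the 3 abemaciclib libraries, 1 panel a gene with its own scale from 0; points are libraries, black lines the mean and SD. The points of ID1 and ID3 are all higher with abemaciclib and those of ID2 all lower, whereas the groups of SMAD3 and SMAD7 overlap.

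ID1 lies on chromosome 20 of GRCh38 from 31605283 to 31606515 on the plus strand. Its level was 39.7, 38.91 and 31.8 CPM in the DMSO libraries and 113, 92.3 and 125 CPM in the abemaciclib libraries. Even the lowest abemaciclib library was thus above every DMSO library. The log2 fold change was 1.57 (SE 0.15, 95% interval 1.27 to 1.88, edgeR quasi-likelihood adjusted P = 1.71e-09), which places ID1 at the 99th percentile of fold changes among all genes tested. The counts behind it were 373 in the DMSO libraries together and 1208 in the abemaciclib libraries.

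ID3 lies on chromosome 1 from 23557926 to 23559501 on the minus strand. It had 78.3, 63.9 and 62.4 CPM with DMSO and 119, 98.4 and 161 CPM with abemaciclib. The groups did not overlap, but the abemaciclib libraries were spread more widely, with replicate 3 the highest. The log2 fold change was 0.89 (SE 0.15, 95% interval 0.58 to 1.19, adjusted P = 3.99e-05 from the same test), and it was 0.67 without abemaciclib replicate 3, still past the threshold.

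ID2 lies on chromosome 2 from 8678845 to 8684461 on the plus strand. Its level was 52.8, 56.1 and 66.6 CPM with DMSO and 23.6, 21.0 and 27.8 CPM with abemaciclib, so every treated library was below every control library. The log2 fold change was −1.28 (SE 0.17, 95% interval −1.63 to −0.92, adjusted P = 1.5e-06 from the same test). A lncRNA on the opposite strand, ID2-AS1, overlaps the gene away from its last 500 bases and had between 0 and 3 counts a library, and the processed pseudogene ID2B had 0 counts in every library.

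ID4, on chromosome 6 from 19837370 to 19842197, was close to the limit of detection. It had 0, 0 and 2 counts in the DMSO libraries and 3, 4 and 6 in the abemaciclib libraries. Every treated library was above every control library, yet by so few counts that the ratio of the summed rates, 5.89, had a 95% exact Poisson interval of 1.33 to 53.7, which covers counting error only. With no filter on low counts, edgeR gave it an adjusted P of 0.386. LNC-LBCS, which overlaps ID4 on the opposite strand, had 0 to 11 counts a library.

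These changes altered the make-up of the ID transcripts as a whole. ID1 made up 22.5% ± 2.48 of the summed ID1 to ID4 level with DMSO and 42.3% ± 2.41 with abemaciclib (SD, n = 3 in each group). ID2 went from 35.8% ± 5.21 to 9.30% ± 0.520, and ID3 from 41.6% ± 3.79 to 47.95% ± 2.73. The ratio of ID1 to ID2 was 0.477 to 0.753 in the DMSO libraries and 4.4 to 4.78 in the abemaciclib libraries. ID1 was therefore the rarer transcript of this pair in all 3 control libraries and the more abundant in all 3 treated ones. The summed level itself was 159 to 171 CPM with DMSO and 213 to 315 CPM with abemaciclib. As the shares add up to a whole, they repeat the changes of the single genes and were not tested apart.

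**Figure D2:**
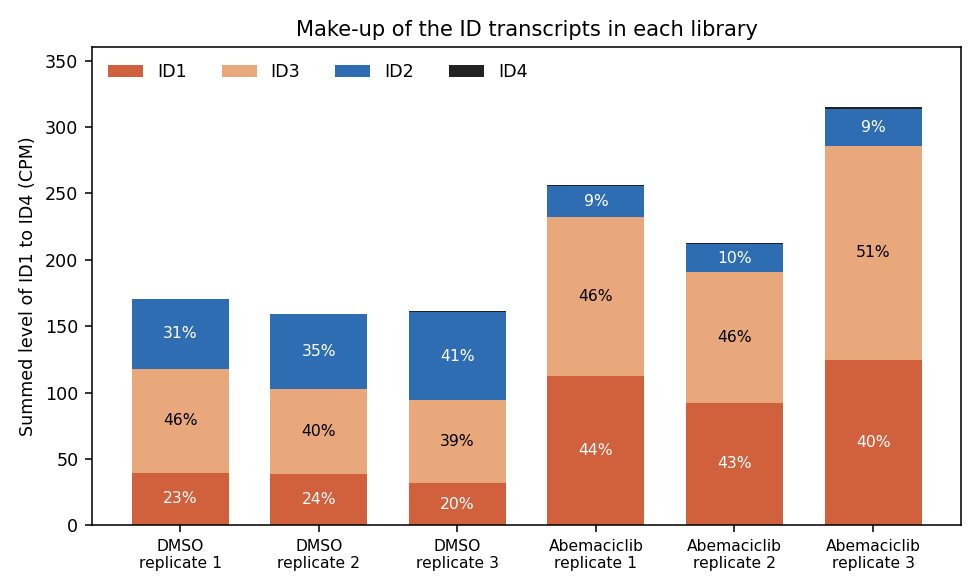
Summed level of ID1, ID2, ID3 and ID4 (vertical axis, CPM) in each of the 6 libraries, with the share of ID1, ID3 and ID2 written in each bar; ID4 is too low to carry a label. The ID2 share is 31% to 41% in the DMSO bars and 9% to 10% in the abemaciclib bars.

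The 250 bases before the start site of ID1, ID2 and ID3 are shown because these 3 genes changed, in opposite directions. SMAD6 is shown because its promoter alone among the 10 holds the SMAD palindrome, which 0.182% of 35116 promoter windows of this length hold. It was picked for display after the matches to all 7 motifs searched were seen. The sequences are those of RefSeq on GRCh38.p14, where all 10 genes had an entry, read 5′ to 3′ on the strand of the gene. Start sites here are those of RefSeq, whereas the gene spans given in the text are those of GENCODE. The GENCODE span of ID2 starts at 8678845, so its window lies inside that span, away from the GENCODE start. The windows of SMAD3 and TGFBR1 also lie inside their GENCODE spans. Capitals mark the SMAD core CAGAC, the SMAD palindrome GTCTAGAC, the GC-rich SMAD site GGCGCC and the cell cycle homology element TTTGAA, a site used by the repressor complex that joins Rb-family proteins at late cell cycle genes. Each was searched on both strands.
ID1, chr20:31605039-31605288, plus strand: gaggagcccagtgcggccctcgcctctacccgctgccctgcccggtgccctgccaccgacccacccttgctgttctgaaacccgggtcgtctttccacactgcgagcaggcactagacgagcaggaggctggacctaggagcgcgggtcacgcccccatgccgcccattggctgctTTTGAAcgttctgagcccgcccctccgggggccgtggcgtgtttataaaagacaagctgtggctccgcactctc
ID2, chr2:8681806-8682055, plus strand: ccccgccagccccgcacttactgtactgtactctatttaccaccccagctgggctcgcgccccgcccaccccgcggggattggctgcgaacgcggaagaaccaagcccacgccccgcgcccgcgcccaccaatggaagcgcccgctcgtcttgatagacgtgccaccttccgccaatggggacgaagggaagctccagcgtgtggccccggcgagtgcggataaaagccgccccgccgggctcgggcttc
ID3, chr1:23559502-23559751, minus strand: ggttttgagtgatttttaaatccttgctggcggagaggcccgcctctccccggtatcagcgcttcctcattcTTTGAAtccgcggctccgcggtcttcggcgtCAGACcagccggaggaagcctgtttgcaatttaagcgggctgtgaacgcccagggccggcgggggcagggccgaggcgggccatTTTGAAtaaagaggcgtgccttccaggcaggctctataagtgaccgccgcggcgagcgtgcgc
SMAD6, chr15:66701986-66702235, plus strand: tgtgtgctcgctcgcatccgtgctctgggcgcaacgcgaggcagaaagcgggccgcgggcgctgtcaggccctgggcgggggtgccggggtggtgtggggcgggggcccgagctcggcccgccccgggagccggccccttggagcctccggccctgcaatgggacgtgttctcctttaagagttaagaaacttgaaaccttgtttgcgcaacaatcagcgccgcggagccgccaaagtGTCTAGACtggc

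ID1 held 1 match to TTTGAA, 74 bases before the start site, and ID3 held 2, at 178 and 63 bases. ID2 held none. TTTGAA was found in 13.3% of the 35116 promoter windows of this length in the table, and besides ID1 and ID3 the window of TGFBR2 had it. The SMAD core, which 38% of all windows hold, occurred once in ID3 at 147 bases, and not in ID1 or ID2. The windows of ID4, SMAD7, TGFBR1 and BAMBI held it as well. ID2 had 3 CCAAT boxes, at 172, 122 and 78 bases, where ID1 had 1 and ID3 had 0, with 32% of all windows holding at least 1. TGFBR1 had 2 of these boxes, and ID4, TGFBR2 and BAMBI had 1 each. The E2F pattern TTTNNCGC, present in 5.92% of windows, was in none of the 10. GGCGCC, in 16.4% of windows, occurred in SMAD3 and BAMBI only among the 10, and the E-box CANNTG, in 61.8% of windows, in 5 of them, ID2 included. These matches describe letters in a short window, and protein binding was not measured here. A link between the matches and the fold changes was not tested.

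Of the receptors, TGFBR1 was expressed at a moderate level and TGFBR2 was barely detected. TGFBR1 encodes the type I receptor kinase for TGF-β and lies on chromosome 9 from 99104038 to 99154192. Its level was 18.9, 28.2 and 19.4 CPM with DMSO and 15.7, 18.01 and 16.5 CPM with abemaciclib. The abemaciclib libraries lay below the DMSO libraries by a narrow margin, and DMSO replicate 2 stood above the rest. The log2 fold change was −0.40 (SE 0.23, 95% interval −0.87 to 0.07, edgeR quasi-likelihood adjusted P = 0.218), and it was −0.19 without DMSO replicate 2.

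TGFBR2, the type II receptor kinase that binds TGF-β first, lies on chromosome 3 from 30606601 to 30694142. It had 0 counts in 5 libraries and 2 counts in abemaciclib replicate 3. The 0 counts of the DMSO libraries, out of 10116330 in all, allow up to 0.297 CPM, and no fold change is given. BAMBI, on chromosome 10 from 28677510 to 28682932, encodes a receptor-like protein without a kinase that blocks type I receptors. Its level was 20.3, 22.6 and 16.7 CPM with DMSO and 11.8, 15.8 and 15.9 CPM with abemaciclib. Although the groups did not overlap, the closest libraries differed by less than 1 CPM, and the log2 fold change of −0.45 (SE 0.24, 95% interval −0.94 to 0.05) did not pass the threshold (adjusted P = 0.186 from the same test).

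Among the SMADs, SMAD3, which carries the TGF-β and activin signal to the nucleus, had 16.2, 19.3 and 15.1 CPM with DMSO and 16.0, 21.0 and 12.4 CPM with abemaciclib. It lies on chromosome 15 from 67063763 to 67195173. The groups overlapped across their whole range, and the log2 fold change was −0.03 (SE 0.25, 95% interval −0.55 to 0.48, edgeR quasi-likelihood adjusted P = 0.947). SMAD7, which brings ubiquitin ligases to the receptors and lies on chromosome 18 from 48919853 to 48950965, likewise overlapped. It had 9.57, 9.51 and 7.88 CPM with DMSO and 9.68, 8.64 and 7.84 CPM with abemaciclib, a log2 fold change of −0.05 (SE 0.33, 95% interval −0.72 to 0.63, adjusted P = 0.942 from the same test). These intervals give the fold changes compatible with these libraries, so the lack of a call does not show that either gene was unchanged.

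SMAD6, the inhibitory SMAD that acts mainly on BMP receptors, lies on chromosome 15 from 66702236 to 66782849 and had the lowest level of the 8 tested genes among the 10. It had 15, 21 and 12 counts with DMSO and 6, 9 and 6 with abemaciclib, or 4.35, 6.24 and 3.64 CPM against 1.82, 2.22 and 1.62 CPM. All treated libraries were below all control libraries. The log2 fold change of −1.31 was as large in size as that of ID2, but its SE was 0.53 and its 95% interval ran from −2.39 to −0.23, and with an adjusted P of 0.067 from the same test it did not pass the threshold. SMAD6, like the ID genes a textbook target of BMP signalling, had a fold change of the same sign as ID2 and opposite to ID1 and ID3. SMAD6 was not called, and what drives these genes was not tested. Counting by libraries alone, 2 of the 8 genes tested had every abemaciclib library above every DMSO library and 4 had every one below, against 19.1% and 20.1% of all genes tested. From 8 genes, no difference from these shares can be read either.

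The rest of the pathway was described with 93 other genes, grouped by role, of which 47 had enough counts to be tested and 16 had 0 counts in all libraries. With abemaciclib, 6 were higher and 7 lower, or 12.8% and 14.9%, close to the shares among all genes tested. The median log2 fold change of the 47 was −0.04, against −0.0018 over all genes tested and −0.22 over the 8 genes above. The same test and adjustment over all genes apply to the values that follow. Of all genes tested, 25.7% were called in either direction. The role groups are too small for a difference from that share to be read.

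Few ligands were expressed. Of 26 genes listed as ligands, 5 were tested, among them BMP4, INHBB and GDF15. BMP1, in that list, encodes a protease rather than a ligand of this family and was not tested. TGFB1, whose 3′ end overlaps HNRNPUL1 on the opposite strand, had only 2 counts with DMSO and 1 with abemaciclib in all. BMP4, a BMP ligand, rose from 26.1, 24.1 and 21.2 CPM to 34.8, 33.1 and 40.0 CPM. The groups did not overlap, with a log2 fold change of 0.59 (SE 0.19, adjusted P = 0.0191). The BMP4 call was lost without DMSO replicate 2 (0.60, adjusted P = 0.0561), without DMSO replicate 3 (0.52, 0.0749) or without abemaciclib replicate 3 (0.51, 0.0734). INHBB, which encodes the βB subunit of activins and inhibins and was the most abundant ligand, fell from 114, 100.1 and 93.6 CPM to 52.6, 65.6 and 65.1 CPM, a log2 fold change of −0.74 (SE 0.13, adjusted P = 9.22e-05). GDF15, a distant family member that is also a stress-induced gene, fell from a range of 83.6 to 92.7 CPM to a range of 10.5 to 18.8 CPM, a log2 fold change of −2.53 (adjusted P = 6.26e-12). TGFB3 and GDF11 were not called, at log2 fold changes of 0.51 and 0.25.

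Of 12 other receptors and coreceptors, 8 were tested and 1 changed. ACVR2B, a type II receptor for activins and related ligands, fell from 26.7, 26.1 and 25.4 CPM to 10.3, 7.16 and 9.73 CPM, and the groups were far apart. Its log2 fold change was −1.53 (SE 0.24, adjusted P = 1.98e-05). The transcripts of the βB subunit and of this receptor were both lower in the treated libraries. ACVR2A and ACVR1B, also activin receptors, had log2 fold changes of −0.37 and −0.28 and did not pass (adjusted P = 0.619 and 0.427). Activin signalling was not measured. BMPR2, the type II receptor for BMPs and the most abundant receptor, had 39.7, 47.2 and 61.5 CPM with DMSO and 62.0, 60.5 and 56.7 CPM with abemaciclib. Its groups overlapped, and the log2 fold change of 0.27 had a 95% interval of −0.05 to 0.60 (adjusted P = 0.221). The type I BMP receptors BMPR1A and BMPR1B had log2 fold changes of 0.31 and −0.04 and did not pass either (adjusted P = 0.551 and 0.908).

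None of the SMADs that carry the signal was called changed. SMAD1, SMAD2, SMAD4 and SMAD5 were all tested, with log2 fold changes from −0.22 for SMAD4 to 0.02 for SMAD1. The count was also 0 at an unadjusted P under 0.05, which 36.1% of all genes tested passed, and 0 with DESeq2, which called 19.3% of the genes it tested. With 4 genes, no difference from these shares can be read. SMAD5, the most abundant, had 81.2 to 114 CPM with DMSO and 89.5 to 101 CPM with abemaciclib, and its 95% interval was −0.31 to 0.22. SMAD9, the remaining BMP SMAD, had 5 counts with DMSO and 4 with abemaciclib in all and was not tested.

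Of 17 extracellular inhibitors and ligand storage proteins, 5 were tested. One of them, LTBP3, which binds latent TGF-β in the matrix, rose from 70.5, 81.7 and 103.9 CPM to 166, 154 and 115 CPM. The groups did not overlap, and the log2 fold change was 0.76 (SE 0.14, adjusted P = 0.000138). Whether reads were counted by strand is not stated, and the counts of LTBP3 are uncertain in that respect. The BMP antagonists NOG, CHRD and GREM1 had at most 5 counts in either group. FST, which encodes the activin antagonist follistatin, was below the filter with 16, 4 and 11 counts in the DMSO libraries and 1, 0 and 2 in the abemaciclib libraries.

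All 14 intracellular regulators were tested, and 2 rose. FKBP1A, which encodes the immunophilin FKBP12 that holds type I receptors inactive, rose from 148, 157 and 172 CPM to 219, 254 and 214 CPM, with a log2 fold change of 0.53 (SE 0.11, adjusted P = 0.000422). PMEPA1, a TGF-β target that restrains receptor SMADs, had 153, 176 and 172 CPM with DMSO and 210, 192 and 212 CPM with abemaciclib, a log2 fold change of 0.29 (SE 0.10, adjusted P = 0.0386). The groups of both genes did not overlap, but the call of PMEPA1 was lost with total counts as the only scaling (0.27), with no filter on low counts (0.30), and without any single one of the DMSO libraries or abemaciclib replicate 1 (0.23 to 0.33). The ubiquitin ligase gene SMURF2 had a log2 fold change of −0.52 and an adjusted P of 0.0656, and its 3′ end overlaps CEP95 on the opposite strand. SKI and SKIL, corepressors of SMADs, had log2 fold changes of 0.10 and −0.17 and did not pass.

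Of 16 other genes known as targets of TGF-β or BMP signalling, 8 were tested, and 2 rose and 3 fell. These are 25% and 37.5%, against 12.5% of all genes tested that were higher and 13.3% that were lower. With 8 listed genes, no difference from these shares can be read. CCN1, which encodes a matrix-associated signalling protein, rose from 13.9, 13.1 and 11.2 CPM to 30.2, 27.4 and 23.5 CPM, a log2 fold change of 1.08 (SE 0.23, adjusted P = 0.000592), and the groups did not overlap. HES1, a repressor and the most abundant of these genes, had 242, 229 and 187 CPM with DMSO and 282, 255 and 266 CPM with abemaciclib, a log2 fold change of 0.29 (adjusted P = 0.0461). The HES1 call was lost with DESeq2 (0.29), with total counts only (0.27), and when DMSO replicate 2 (0.31) or 3 (0.18), or abemaciclib replicate 1 (0.25) or 2 (0.32), was left out.

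CDKN1A, the CDK inhibitor p21, fell from a range of 142 to 162 CPM to a range of 18.9 to 27.6 CPM, a log2 fold change of −2.66 (adjusted P = 1.66e-14). KLF10 and TSC22D1, early TGF-β response genes, fell by 0.82 and 0.48 on the log2 scale (adjusted P = 0.0114 and 0.0295). The call of KLF10 was lost without DMSO replicate 1 (−0.71) or abemaciclib replicate 2 (−0.72). The 3′ end of TSC22D1 overlaps an unnamed gene on the opposite strand. Its call did not hold with DESeq2 (−0.47), without any single one of the DMSO libraries (−0.49 to −0.47) or without abemaciclib replicate 2 (−0.36). TGFBI and CCN2 are widely used as TGF-β targets, and neither had enough counts to be tested. TGFBI had 0 counts in every library, and CCN2 had 8, 5 and 5 with DMSO and 1, 3 and 1 with abemaciclib.

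The E proteins that ID proteins bind were each tested. TCF3 had a log2 fold change of −0.04 (95% interval −0.29 to 0.22, adjusted P = 0.867) at 77.7 to 93.8 CPM in all 6 libraries, and TCF12 had one of −0.01 (95% interval −0.32 to 0.30, adjusted P = 0.977) at 47.9 to 69.3 CPM. Neither separated the groups. TCF4, the rarest of the E proteins, had 15, 18 and 13 counts with DMSO and 3, 2 and 6 with abemaciclib. It fell by 2.15 on the log2 scale (SE 0.60, adjusted P = 0.00854), and this call was lost without DMSO replicate 2 (−2.02, adjusted P = 0.0538) or abemaciclib replicate 2 (−1.80, adjusted P = 0.0664).

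**Figure D3:**
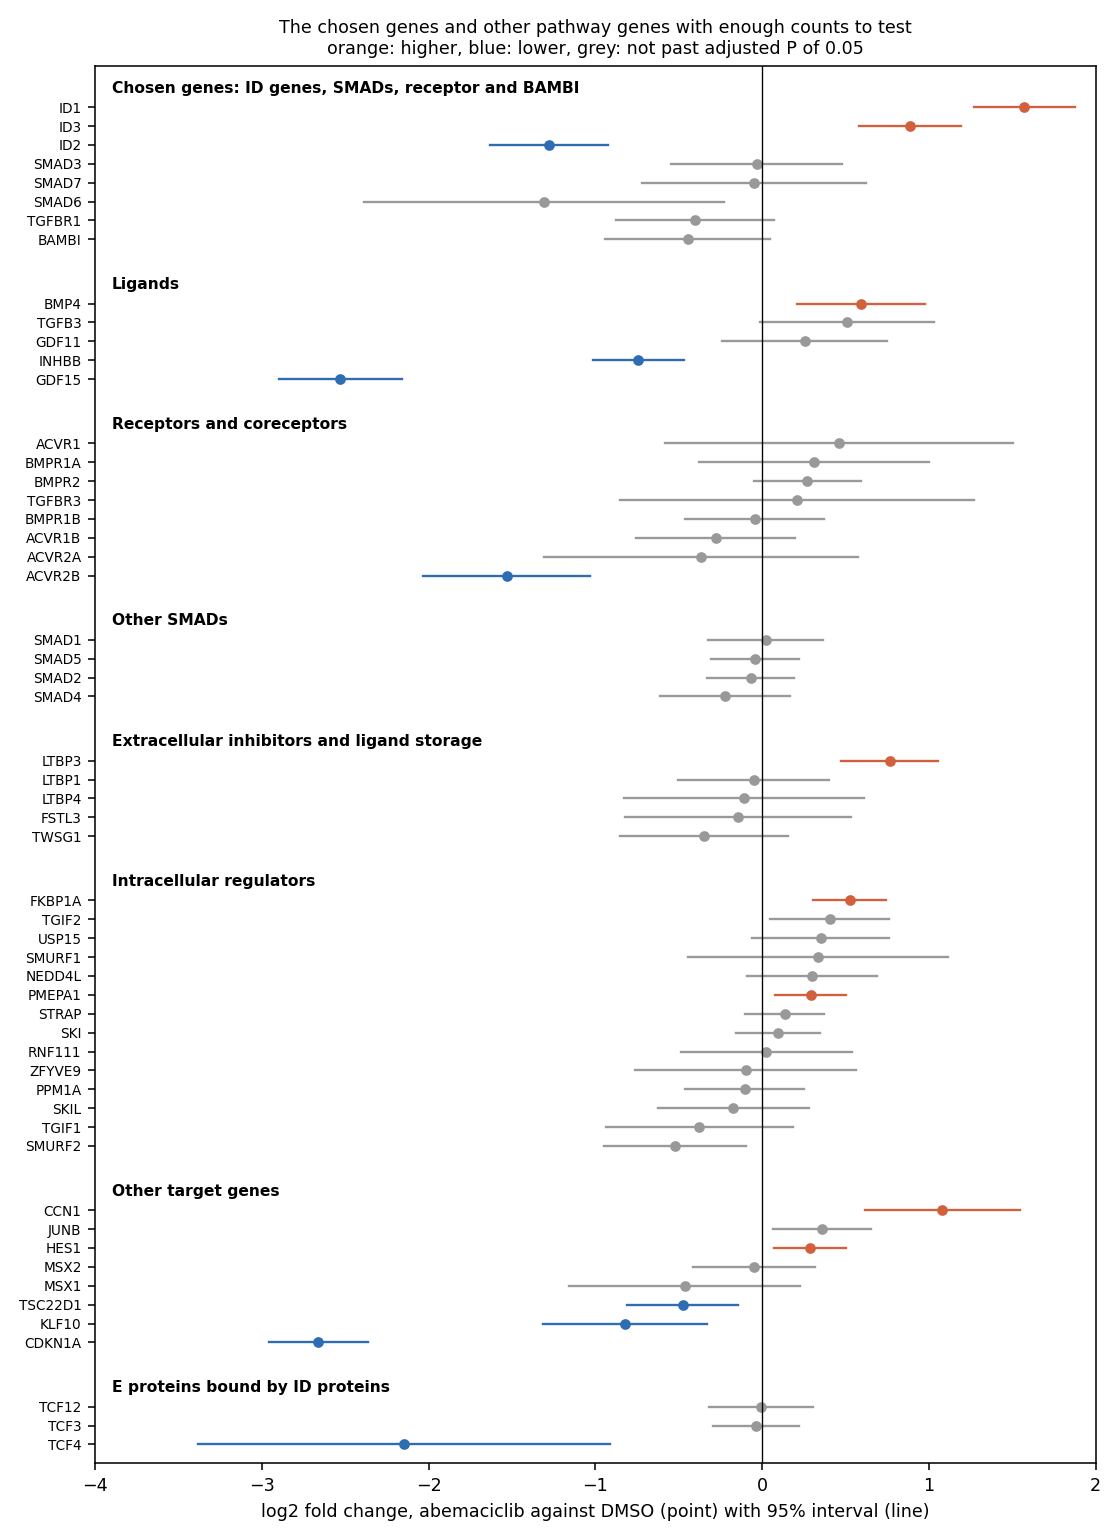
Log2 fold change of abemaciclib against DMSO (horizontal axis) with its 95% interval for the 8 tested genes of the 10 and the 47 tested pathway genes, by role; orange genes were higher, blue genes lower and grey genes not past the threshold. The SMADs that carry the signal sit near 0, while ID1 at 1.57 and ID2 at −1.28 lie on opposite sides.

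The fold changes of the tested genes were set against the processing. ID1, ID2 and ID3 passed the threshold under all 12 alternatives run, with log2 fold changes of 1.48 to 1.69, −1.39 to −1.18 and 0.67 to 1.04 (highest adjusted P of 3.14e-07, 6.58e-05 and 0.00167). SMAD6 ranged from −1.47 to −1.07 under the 11 alternatives that retained it, TGFBR1 from −0.51 to −0.19 and BAMBI from −0.56 to −0.32, and none of these passed under any alternative.

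**Figure D4:**
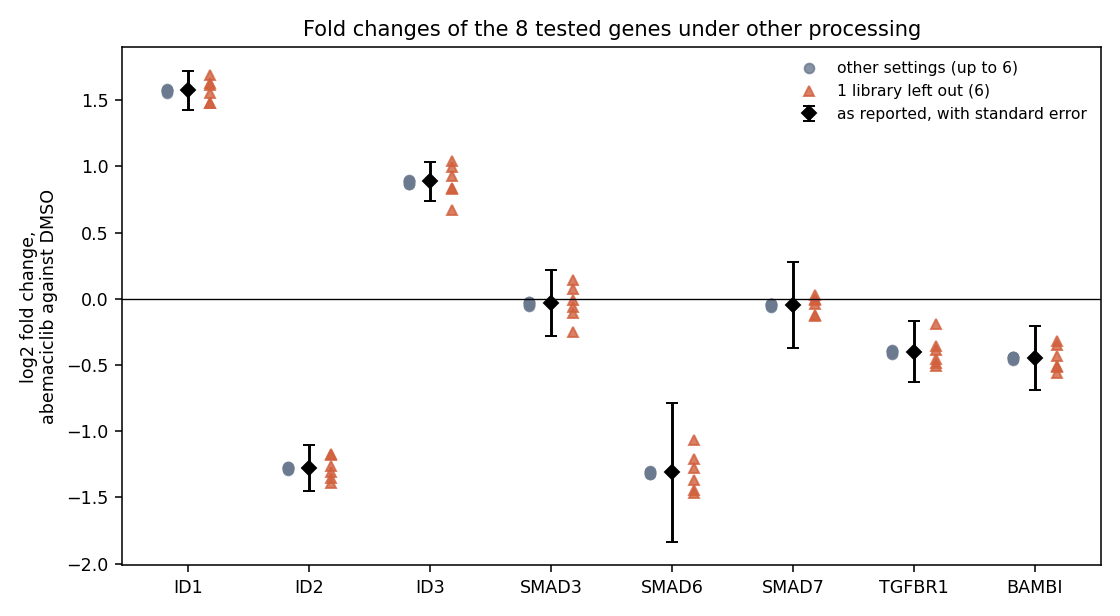
Log2 fold change of each tested gene (vertical axis) as reported with its standard error (black), under other settings of the analysis (grey circles) and with 1 library left out (orange triangles). ID1 and ID3 stay above 0 and ID2 below it throughout, and SMAD3 and SMAD7 scatter around 0.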

How the data were processed

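The 6 RNA libraries of ZR-75-1 cells were grouped by the treatment in their labels. The deposited values are raw counts per gene: after trimming (BBDuk), the authors mapped the single-end reads with STAR 2.7.5b to hg38 and used featureCounts 2.0.1 with a GENCODE annotation, without normalization. The strand setting is not given in the sources used here. Symbols were matched by identifier for 60401 of 60656 genes, and positions and overlaps are from a later GENCODE release on GRCh38.

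The 10 genes and the gene lists were chosen with earlier results of these data known. Genes were filtered with edgeR's filterByExpr, which left 10863, and compared in R 4.3.3 with edgeR 4.0.16 (TMM, glmQLFit, glmQLFTest, no covariate, Benjamini–Hochberg adjustment over all genes tested, threshold 0.05). The standard error is the log2 fold change divided by the square root of F, and intervals use the t distribution. The biological coefficient of variation was 13.2%. All 10 genes were named, and from the pathway list, those past the threshold and the most abundant of each role were, and any other list gene in the text was picked with its values in view. The fit was tested on simulated data. Alternatives were DESeq2 1.42.0, its size factors in edgeR, total counts only, no filter, at least 10 counts in every library, a replicate block and each library left out in turn. Some items are not reported here.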

Additional observations from a re-analysis of the deposited data

How the results depend on the processing

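The counts of 2 genes higher and 1 lower among the 8 tested of the 10 genes held under all 12 alternatives. Among all genes tested, the 1354 calls upwards numbered 1069 with DESeq2, 1266 with total counts only and 981 to 1412 with 1 library left out, and the 1442 calls downwards 1165, 1506 and 1132 to 1529. For the pathway list, 6 higher and 7 lower became 4 to 6 and 5 to 8 with 1 library left out. Of 95 fold changes of those 8 genes under an alternative, 92 had the same sign and the same call as reported and 3 changed sign, with no call before or after: SMAD3, at −0.25 to 0.14 with 1 library left out, was positive without DMSO replicate 2 (0.07) and without abemaciclib replicate 3 (0.14), and SMAD7, at −0.13 to 0.0254, was positive without abemaciclib replicate 3 (0.0254). The cause was not tested. SMAD6 had no value with at least 10 counts in every library, since it did not reach that minimum. Depth limits ID4, TGFBR2 and SMAD6 most.

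No sign was found that the replicate numbers pair the libraries. The deviations of same-numbered libraries from their group means had correlations of −0.0434, 0.00705 and −0.0893 across genes. In 2 of 3 numbers, the DMSO library correlated better with an abemaciclib library of another number. With 3 libraries in each group, this check cannot exclude pairing. With the replicate block, 1139 genes were higher and 1280 lower, with 2 and 1 among the 8 genes and 5 and 7 in the pathway list, and the calls of PMEPA1 and HES1 were lost (adjusted P = 0.0864 and 0.0786).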

Other observations

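The protein-coding genes nearest to ID1, ID2 and ID3 among those tested were looked at after the values of the ID genes were seen. ID3 has E2F2, an activator E2F of the cell cycle, 26693 bases away on chromosome 1, and while ID3 rose, E2F2 fell by 3.09 on the log2 scale (SE, the standard error, 0.26, edgeR adjusted P = 2.24e-10). On the other side of ID3, RPL11, a ribosomal protein gene 132241 bases away, had a log2 fold change of 0.17 and did not pass the threshold (adjusted P = 0.202). Both neighbours of ID1 on chromosome 20 rose, as ID1 did. Of all genes tested, 12.5% were higher and 13.3% lower. HM13, which encodes a signal peptide peptidase, lay 27360 bases away and rose by 0.42 on the log2 scale (adjusted P = 0.00172). BCL2L1, which encodes the survival protein BCL-XL, lay 57937 bases away and rose by 0.70 (SE 0.13, adjusted P = 0.000106), against 1.57 for ID1. KIDINS220, 36620 bases from ID2, had a log2 fold change of 0.32 and did not pass the threshold (adjusted P = 0.206), while ID2 fell. On the other side of ID2, the nearest tested gene was RPS7, 5097925 bases away. It had a log2 fold change of 0.13 and did not pass either (adjusted P = 0.584). Whether neighbours share control was not tested.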
